A study of Arabidopsis thaliana with 12 samples.

Results

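Class III peroxidases are secreted plant heme enzymes that use hydrogen peroxide to oxidise phenolic compounds in the cell wall. They take part in lignin polymerisation and in the cross-linking of wall proteins such as extensins, and in another part of their catalytic cycle they can form reactive oxygen species. In roots the family is known for wall stiffening, hair growth and the building of barriers, and in leaves for responses to wounding and pathogens. The genes described here are the rows of the deposited leaf and root expression tables whose gene name is PER followed by digits only. They number 9 of the 656 genes listed in either table. PER37, PER21, PER45, PER50, PER34 and PER62 were among the 608 genes of the leaf table and PER10, PER59 and PER70 among the 65 genes of the root table, and none was among the 17 genes listed in both.

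The plants were Arabidopsis seedlings of the wild-type cultivar WS (Wassilewskija), 11 days old and grown on vertical plates under LED light in Veggie hardware, either on the International Space Station (spaceflight, FT) or in a chamber on the ground (ground control, GC). Each treatment had 3 plates, RNA came from pools of 3 plants per plate fixed in RNAlater, and leaves and roots were sequenced separately, which gave 12 libraries in 4 groups of 3. The ground control ran with a delay of 48 h in the labels and 24 h in the paper, and the root material is described as whole roots in one label, as root tips in the labels' protocol and as dissected roots in the paper. A material field in the labels swaps the organ for some libraries, and the organ used here is that of the titles. Levels of organ markers followed the titles. LHCB1.2, a light-harvesting protein gene, had a mean of 11306 FPKM (read fragments scaled to transcript length and to the total mapped) in GC leaf and 74.1 in GC root, and BGLU21, a root beta-glucosidase gene, had 0.470 and 854 FPKM.

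Both tables hold only genes that the authors had called different between spaceflight and ground control in that organ, at an FDR under 0.05 and at least 2-fold. The spaceflight difference of a leaf-table gene in leaf, or of a root-table gene in root, was thus set in part by how the table was made, and its test here is no independent evidence. The same genes in the other organ did not enter that choice. The comparison of organs did not either, but it uses libraries that did. A gene listed for its spaceflight difference in an organ thus tends to change its organ difference between the treatments. FPKM is scaled to transcript length, so levels can be compared between genes. Differences below are on the log2(FPKM + 1) scale, tested with limma, with adjusted p taken over all genes of the table. A gene is called where the adjusted p is below 0.05 and the difference on this scale is 2-fold or more. Changes of genes near or under 1 FPKM come out too small on it.

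In leaves, 5 of the 6 leaf-table peroxidases were called higher in spaceflight and none lower, among 608 genes of which 58.1% were called higher and 16.4% lower. Their means rose 2.13-fold to 3.40-fold, and for all 6 genes every spaceflight library lay above every ground control library, as it did for 68.1% of the 608 genes. The median difference was 1.14 over the 6 members and 1.09 over all genes of the table. A larger share of peroxidase-expressing cells and more RNA per cell cannot be told apart in pooled organs.

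PER34, the peroxidase CB of the annotation, is known in Arabidopsis as a source of the oxidative burst at the cell surface during defence. Its level was 27.4, 24.4 and 26.6 FPKM in the 3 ground control leaf libraries and 53.1, 37.4 and 102 FPKM in the 3 spaceflight leaf libraries. The ground control values lay close together, and the spaceflight values spread widely, with replicate 3 the highest. The difference was 1.14 (SE 0.36, limma adjusted p = 0.0107), and without spaceflight leaf replicate 3 it was 0.75 and no longer reached 2-fold.

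PER37, whose overexpression in Arabidopsis has been linked to reduced growth and altered wall phenolics, measured 18.4, 25.9 and 19.3 FPKM in ground control leaves and 67.7, 43.2 and 66.2 FPKM in spaceflight leaves. Spaceflight replicate 2 was the lowest of its group and ground control replicate 2 the highest of its own, and the groups still stood apart. The difference was 1.42 (SE 0.30, limma adjusted p = 0.00197), and it was called under all 11 alternative settings.

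PER21 had 8.86, 15.03 and 12.4 FPKM in ground control leaves against 23.6, 27.9 and 30.4 FPKM in spaceflight leaves. The groups were about equally spread in FPKM, with an SD of 3.10 in the ground control and 3.47 in spaceflight. Its difference of 1.13 (SE 0.30, limma adjusted p = 0.00495) fell to 0.94 without ground control leaf replicate 1, the lowest library, and was then under 2-fold.

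PER50, the most abundant of the 9 in ground control leaves, had 22.7, 31.7 and 31.2 FPKM there and 50.3, 52.1 and 79.9 FPKM in spaceflight leaves. Again spaceflight leaf replicate 3 was the highest. The difference of 1.05 (SE 0.31, limma adjusted p = 0.00768) was close to the 2-fold threshold and went below it without ground control leaf replicate 1 (0.90) or without spaceflight leaf replicate 3 (0.84).

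PER62, which in Arabidopsis takes part in root hair growth at low temperature, was a low-level gene with 2.84, 4.34 and 5.25 FPKM in ground control leaves. In spaceflight leaves it had 9.09, 10.4 and 22.7 FPKM, with the last of these, replicate 3, well above the others. This was the largest difference of the 6 members, 1.47 (SE 0.36, limma adjusted p = 0.00375), and it was called under all 11 alternative settings.

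PER45 was at a low level in leaves and by far higher in roots. It had 0.28, 0.41 and 0.64 FPKM in ground control leaves and 1.04, 1.05 and 3.46 FPKM in spaceflight leaves. There, 2 spaceflight libraries were nearly equal and replicate 3 was far above them. The means differed 4.17-fold, but the difference on the log2(FPKM + 1) scale was 0.89 (SE 0.35, limma adjusted p = 0.0282) and did not reach 2-fold. With a pseudocount of 0.1 FPKM it was 1.67 and was called.

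Spaceflight leaf replicate 3 was the highest spaceflight leaf library for 5 of the 6 members, all but PER37, and also for 61.2% of the 608 genes of the leaf table. With it left out, 3 of the 6 members were called higher, PER37, PER21 and PER62. With ground control leaf replicate 1 left out, 3 were called higher, PER37, PER34 and PER62. Leaving out any of the other 4 leaf libraries gave 5 or 6 calls.

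**Figure D1:**
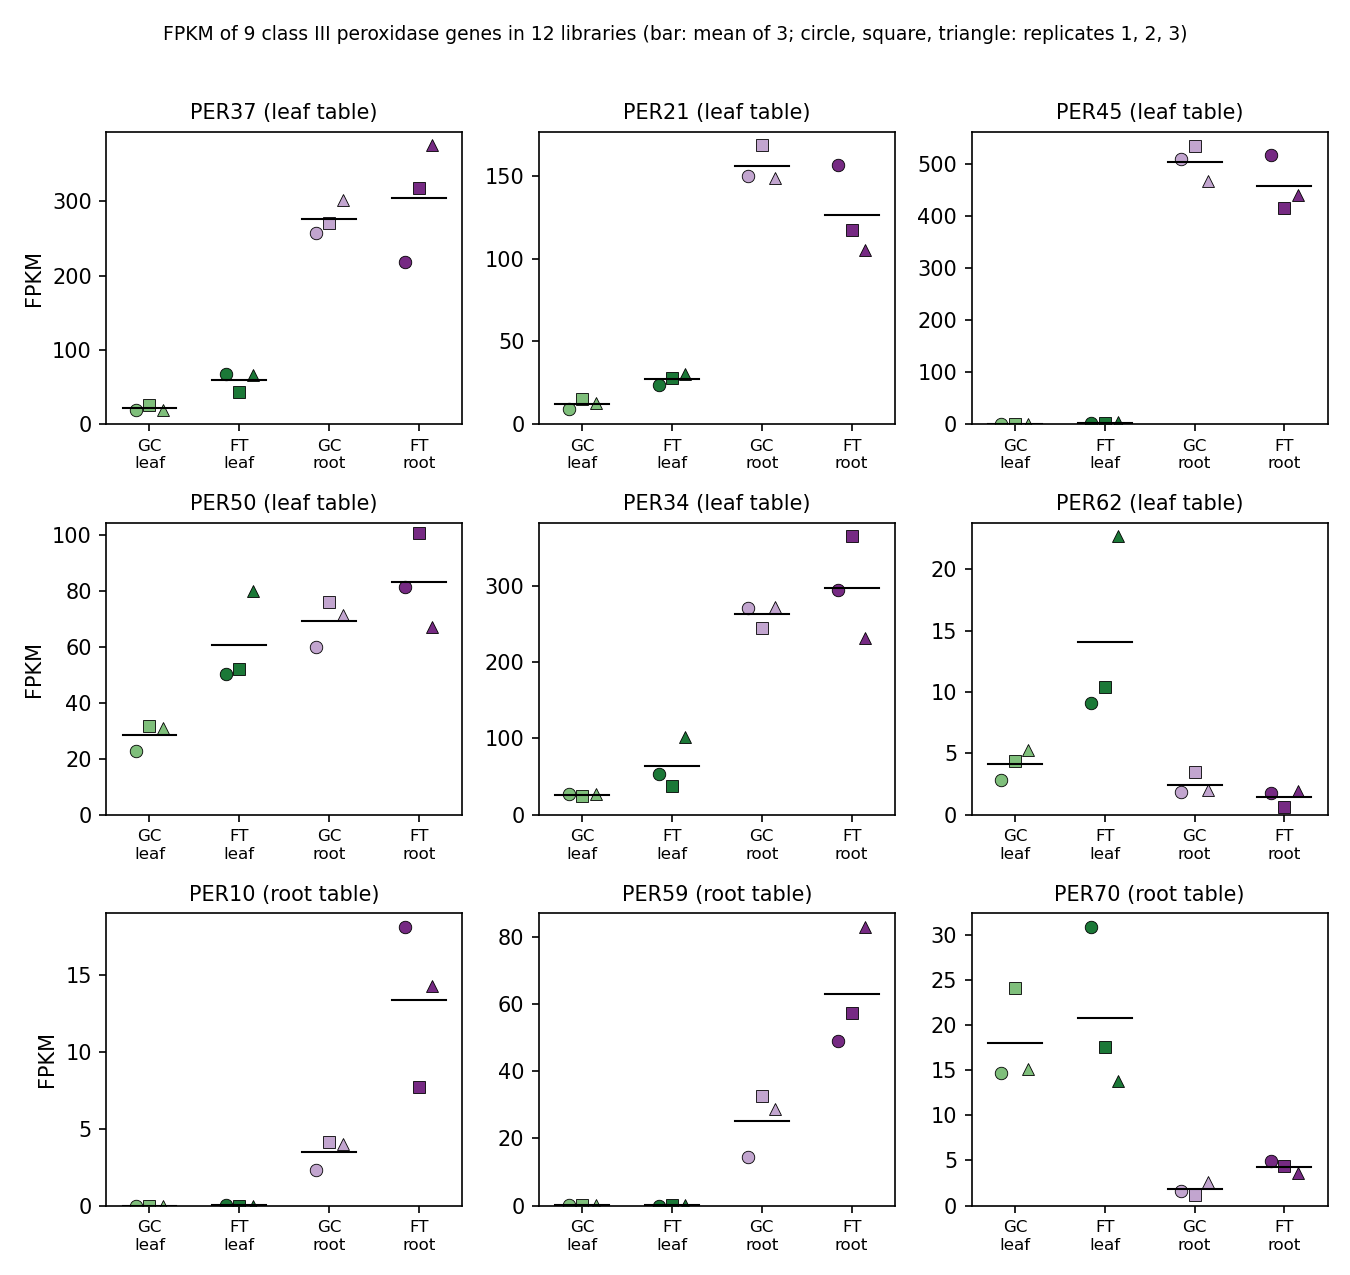
FPKM of each of the 9 peroxidase genes (vertical axes, linear and starting at 0, with their own scale) in the 3 libraries of each of the 4 groups, with a bar at the group mean. PER37, PER21, PER45 and PER34 stand far higher in root than in leaf, PER62 and PER70 are the genes with more in spaceflight leaf than in spaceflight root, and PER10 and PER59 are near 0 in leaf.

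In roots, 2 of the 3 root-table peroxidases were called higher in spaceflight and none lower, among 65 genes of which 27.7% were called higher and 27.7% lower. For all 3 genes the spaceflight root libraries lay above the ground control root libraries, as for 58.5% of the 65 genes. The median difference was 1.34 over the 3 members and 0.75 over all genes of the table.

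PER10 had 2.30, 4.14 and 4.01 FPKM in ground control roots and 18.1, 7.69 and 14.3 FPKM in spaceflight roots. Spaceflight replicate 2 was the lowest of its group and still above every ground control library. The means differed 3.83-fold, and the difference was 1.63 (SE 0.35, limma adjusted p = 0.00739), called under all 11 alternative settings.

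PER59 was the most abundant of the 3 in roots, with 14.3, 32.5 and 28.7 FPKM in ground control roots and 48.9, 57.5 and 83 FPKM in spaceflight roots. Ground control replicate 1 was low beside the other libraries of its group. The difference of 1.34 (SE 0.36, limma adjusted p = 0.0123) was 0.99 without that library and then under 2-fold, which left 1 of the 3 members called.

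PER70 was low in roots, at 1.62, 1.17 and 2.58 FPKM in the ground control and 4.96, 4.36 and 3.64 FPKM in spaceflight. Its means differed 2.41-fold and the difference was 0.95 (SE 0.27, limma adjusted p = 0.0149), under the 2-fold threshold. It was called with a pseudocount of 0.1 FPKM (1.28) and without ground control root replicate 3 (1.15) or spaceflight root replicate 3 (1.05).

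In the organ whose spaceflight difference had not been used to list them, none of the 9 peroxidases was called. For the leaf-table members in roots, limma called 0 of 6, none had an unadjusted p under 0.05, and the groups overlapped for all 6. In that comparison 0.164% of the 608 genes were called higher and 0% lower, 27.3% had an unadjusted p under 0.05 and the groups overlapped for 69.6%. The differences ran from -0.51 for PER62 to 0.25 for PER50. For PER37 the interval was -0.39 to 0.60, for PER21 -0.71 to 0.07 and for PER45 -0.42 to 0.14, so a rise in root of the size measured in leaf lay outside each of these intervals. The intervals of PER50 (-0.16 to 0.66), PER34 (-0.26 to 0.57) and PER62 (-1.18 to 0.15) also ended below their leaf differences. The leaf differences were set in part by the choice of genes and have intervals of their own. Those of PER50 (0.38 to 1.71), PER34 (0.36 to 1.92) and PER45 (0.13 to 1.64) overlapped the root intervals.

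The root levels behind these intervals were high for 5 of the 6 genes. PER37 measured 257, 270.45 and 301 FPKM in ground control roots and 219, 317 and 376 FPKM in spaceflight roots, and PER34 271, 245 and 272 FPKM against 294, 365 and 232 FPKM. In both genes the spaceflight roots spread more widely than the ground control roots and reached above and below them. PER45 was the most abundant peroxidase of the roots, with 511, 536 and 467 FPKM in the ground control and 519, 416 and 441 FPKM in spaceflight. PER21 had 150, 169 and 149 FPKM and then 157, 117 and 105 FPKM, with 2 of the 3 spaceflight libraries below all ground control libraries. PER50 had 60.2, 76.0 and 71.3 FPKM and 81.4, 101 and 67.3 FPKM. PER62 was the exception in level, with 1.86, 3.46 and 2.04 FPKM in ground control roots and 1.80, 0.64 and 1.91 FPKM in spaceflight roots.

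For the root-table members in leaves, limma called 0 of 3 and none had an unadjusted p under 0.05, while 10.8% of the 65 genes were called higher and 7.69% lower and 30.8% had such a p. The groups overlapped for all 3 and for 60% of the 65 genes. PER10 was listed at 0 in 5 of the 6 leaf libraries and at 0.04 FPKM in spaceflight leaf replicate 1. PER59 had 0.03, 0.07 and 0.16 FPKM in ground control leaves and 0, 0.28 and 0.26 FPKM in spaceflight leaves. At such levels a change in leaf would hardly show on the log2(FPKM + 1) scale. PER70, in contrast, was well expressed in leaves, with 14.7, 24.2 and 15.2 FPKM in the ground control and 30.9, 17.6 and 13.9 FPKM in spaceflight. Spaceflight leaf replicate 1 was the highest of the 6 and replicate 3 the lowest, and the interval of the difference, -0.78 to 1.09, included the root difference.

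**Figure D2:**
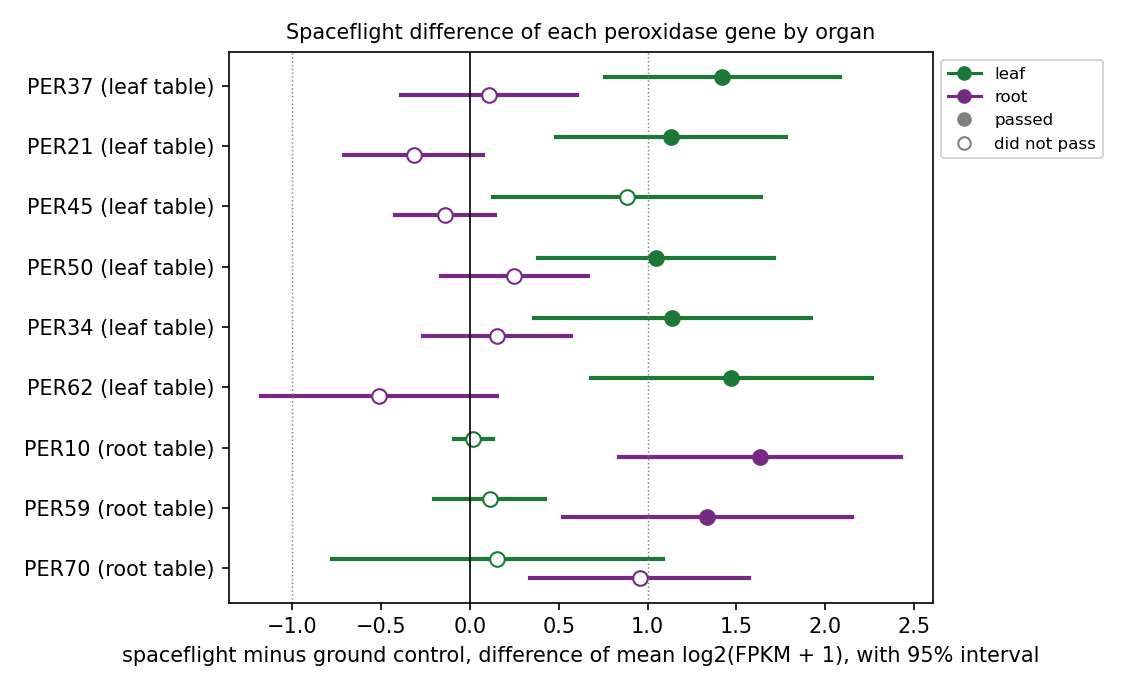
Difference of mean log2(FPKM + 1) between spaceflight and ground control (horizontal axis) with its 95% limma interval for each gene in leaf and in root, 3 libraries per group, with dotted lines at a 2-fold change. Filled points passed the adjusted p and 2-fold thresholds, and these are 5 leaf-table genes in leaf and 2 root-table genes in root.

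The spaceflight effect in leaf minus that in root was tested as an interaction over all 12 libraries, with the adjusted p alone as the threshold. All 6 leaf-table members had a higher effect in leaf, and PER10 and PER59 a lower one. Over the 656 genes 54.1% were called higher and 19.4% lower, and since the genes were listed for an effect in a given organ, this comparison shares that choice. The largest values were 1.98 for PER62 (SE 0.48, limma adjusted p = 0.00445) and -1.61 for PER10 (SE 0.38, limma adjusted p = 0.00400). PER21 had 1.45 and PER37 1.32, and these 4 genes were called under all 16 alternative settings. The values of PER50 (0.80, limma adjusted p = 0.0445) and PER34 (0.99, limma adjusted p = 0.0474) were just past the threshold and were lost under 9 and 12 of the 16 alternatives. PER45 (1.03) was lost under 5, each time without a library. PER59 (-1.23) was lost with the smaller pseudocount. The value of PER70, -0.80 (limma adjusted p = 0.0910), did not pass.

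In 8 of the 9 genes, all but PER62, the ground control difference between organs was larger in size than the spaceflight difference in the organ of their table. For PER50 the sizes were close (-1.26 and 1.05). How many of the 656 genes have this order was not counted, and 69.05% of them were called different between organs in the ground control. In the ground control 7 of 9 were lower in leaf than in root and PER70 was higher, among 656 genes of which 24.1% were called higher in leaf and 45.0% lower. In spaceflight 6 of 9 were lower in leaf and PER62 and PER70 higher, where 34.0% of the genes were called higher and 33.8% lower. The median leaf minus root difference of the 9 members was -3.28 in the ground control and -2.29 in spaceflight, beside -0.61 and -0.21 over all genes. Changes of the organ difference between treatments, here and below, follow in part from the choice of genes by their spaceflight difference. PER45, PER10 and PER59, low or near 0 in leaf, may have passed the authors' CPM filter only through their root level.

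The order of levels in ground control roots was PER45 (mean 505 FPKM, SD 34.6), PER37, PER34, PER21, PER50, PER59, PER10, PER62 and PER70. In that order the ranges of PER37 and PER34, of PER10 and PER62, and of PER62 and PER70 overlapped. In ground control leaves PER50 (mean 28.5 FPKM, SD 5.08) led, followed by PER34, PER37, PER70 and PER21, whose neighbours all overlapped, and then by PER62, PER45, PER59 and PER10, which did not. In spaceflight leaves PER34 (mean 64.1 FPKM, SD 33.6), PER50 and PER37 led with overlapping ranges and stood above PER21, PER70 and PER62. The order in spaceflight roots was that of ground control roots, except that PER70 lay above PER62.

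PER45 was the most root-biased of the 6 leaf-table peroxidases. Its ground control leaf minus root difference was -8.46 (SE 0.16, limma adjusted p = 1.14e-08), and its mean in leaf was 0.0878% of that in root in the ground control and 0.403% in spaceflight. At so low a leaf level it may have passed the authors' CPM filter only through its root libraries. A far higher level in root was then a condition of being listed, so its organ test is no independent evidence. PER37, PER21 and PER34 formed a group with leaf levels of 7.68%, 7.77% and 9.95% of the root level in the ground control. In spaceflight these were 19.4%, 21.6% and 21.6%, and the leaf was still called lower in each.

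PER50 had the smallest root bias, with leaf at 41.2% of root in the ground control (-1.26, SE 0.19, limma adjusted p = 0.000347). In spaceflight leaf stood at 73.1% of root, the ranges overlapped and the difference of -0.46 (SE 0.26, limma adjusted p = 0.138) was not called. PER62 went from ranges that overlapped in the ground control (0.57, SE 0.25, limma adjusted p = 0.0626) to a leaf level 9.70 times the root level in spaceflight (2.56, SE 0.37, limma adjusted p = 0.000150). PER70 was the leaf-biased gene in either treatment, with leaf at 10.07 times root in the ground control and 4.82 times in spaceflight.

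**Figure D3:**
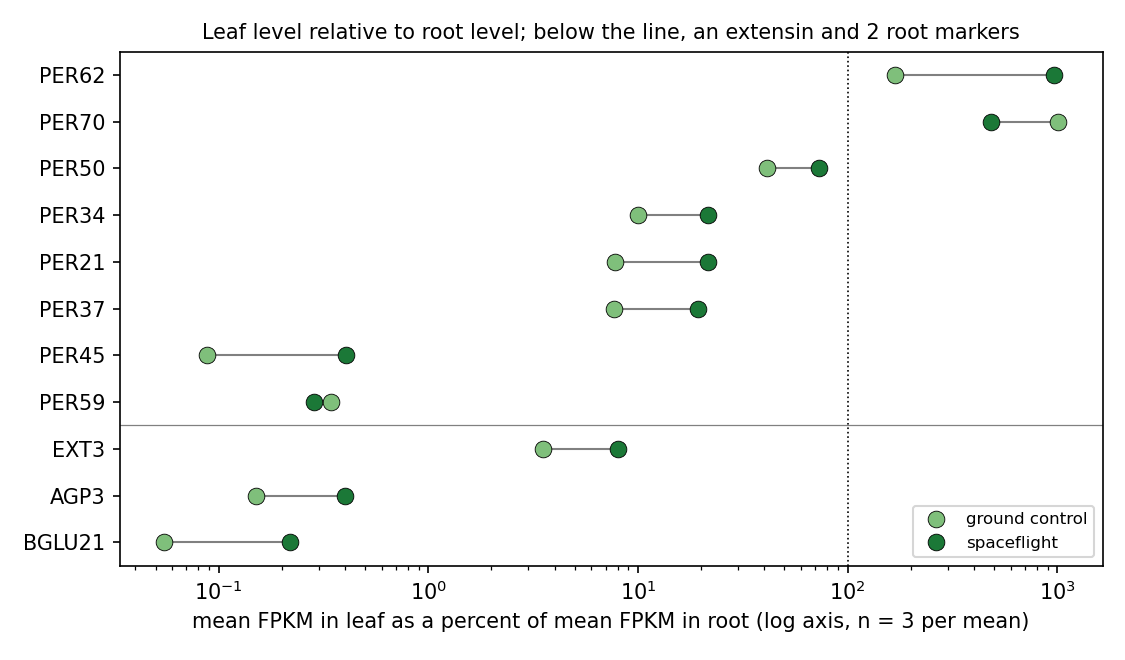
Mean FPKM in leaf as a percent of mean FPKM in root (log axis, 3 libraries per mean, dotted line at equal levels) in ground control and spaceflight, for 8 peroxidase genes and, below the line, EXT3 and the root markers AGP3 and BGLU21. All leaf-table peroxidases lie further to the right in spaceflight, as do EXT3, AGP3 and BGLU21, and PER10 is left out because it is at 0 in ground control leaf. The genes that lie further to the right were all listed for a spaceflight difference in leaf.

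Summed over the 6 leaf-table members, the FPKM was 80.4 to 102 in ground control leaves and 172 to 304 in spaceflight leaves, against 1251 to 1299 in ground control roots and 1223 to 1317 in spaceflight roots. The leaf sums of the treatments did not overlap and the root sums did. Each of the 6 genes was listed for a leaf difference and had all spaceflight leaf libraries above the ground control ones. Their leaf sums could therefore not overlap, and the gap is no further evidence. The 3 root-table members summed to 18.2 to 37.8 FPKM in ground control roots and 69.6 to 101 FPKM in spaceflight roots, where the same limit applies. In leaves their sum was almost entirely PER70 and ran from 14.8 to 24.2 FPKM in the ground control and from 14.1 to 30.97 FPKM in spaceflight.

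**Figure D4:**
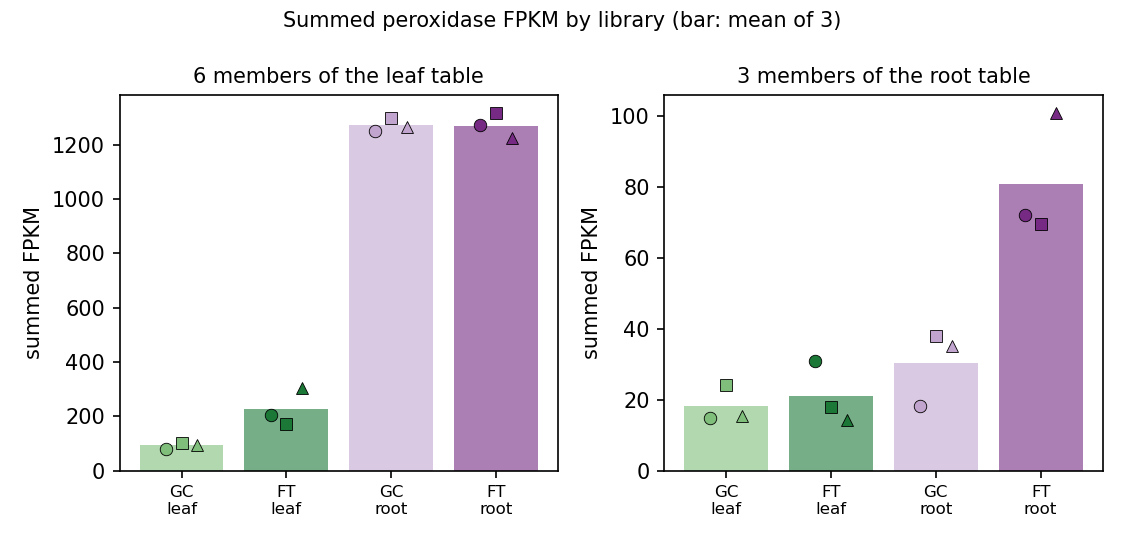
Summed FPKM of the 6 leaf-table members and of the 3 root-table members in each library, with bars from 0 to the group mean and a point for each of the 3 libraries. The leaf-table sum in root is between 1223 and 1317 FPKM in all 6 libraries, and in leaf it is at most 102 in the ground control and at least 172 in spaceflight. The gap between treatments in the organ of each table follows from how the genes were listed.

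The few listed markers of the other organ moved in the same direction as some of these genes. Each was listed because the authors had called it different between treatments in the organ of its table, so its change there was set by that choice. Markers outside the tables could not be seen. Of 42 root markers (root hair, endodermis and other root genes), 2 were among the listed genes, both in the leaf table. AGP3, an arabinogalactan protein gene, had a mean of 0.437 FPKM in ground control leaf and 1.2 FPKM in spaceflight leaf (0.61, limma adjusted p = 0.0583), and BGLU21 had 0.470 and 1.32 FPKM (0.62, limma adjusted p = 0.0656). Their summed level was 0.58 to 1.11 FPKM in ground control leaves, 1.82 to 3.43 FPKM in spaceflight leaves, 1081 to 1263 FPKM in ground control roots and 730.3 to 1096 FPKM in spaceflight roots, and neither was at 0 in every leaf library. As a percent of root, AGP3 in leaf went from 0.150% to 0.399% and BGLU21 from 0.0550% to 0.219%, beside the 0.0878% and 0.403% of PER45. These genes are low in leaf and may have passed the authors' CPM filter only through their root level. Their low percents are thus shaped by the listing. PER62 was higher in spaceflight leaf than in any root library. The part of root-type RNA in the leaf differences of the leaf-table peroxidases was not tested.

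Leaf markers were looked at in roots in the same way, and the same choice of genes applies to them. Of 19 photosynthesis genes 3 were listed, all in the root table, and LHCB1.2 (1.04, limma adjusted p = 0.0201) and LHCB2.2 (1.13, limma adjusted p = 0.0224) rose in spaceflight roots, while LHCB4.2 had a difference of 0.97. Their summed level was 102 to 111 FPKM in ground control roots and 144 to 344 FPKM in spaceflight roots, against 13678 to 17828 FPKM in ground control leaves and 6221 to 14152 FPKM in spaceflight leaves. None of the 3 was at 0 in every root library. They stood at 0.590% to 0.866% of the leaf level in ground control roots and at 1.92% to 2.64% in spaceflight roots. PER70 had a mean of 1.79 FPKM (SD 0.72, n = 3) in ground control roots and 4.32 FPKM (SD 0.66, n = 3) in spaceflight roots, 9.93% and 20.8% of its leaf level. PER10 and PER59 were at or near 0 in leaf. The part of leaf-type RNA in the root differences of the root-table peroxidases was not tested.

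Genes that act with class III peroxidases were looked up by lists. The 656 genes of the tables are 2.39% of 27443 annotated genes, so few members of a short list would be among them in any case. The tables used here also hold fewer genes than the paper lists, and a gene outside them may still have differed. Of 8 extensin and leucine-rich repeat extensin genes, whose proteins peroxidases cross-link in the wall, EXT3 was listed, with 161 FPKM (SD 6.47, n = 3) in ground control leaves and 361 FPKM (SD 127, n = 3) in spaceflight leaves. It rose by 1.10 (SE 0.32, limma adjusted p = 0.00733), and its leaf level went from 3.51% to 7.99% of the root level, which was 4593 FPKM in the ground control and 4523 FPKM in spaceflight. Of 26 genes for hydrogen peroxide scavenging, 2 were listed in the leaf table. APX5, an ascorbate peroxidase gene, had -0.66 (limma adjusted p = 0.0556) and GPX7, a glutathione peroxidase gene, -0.998 (limma adjusted p = 0.0160), and neither was called. None of 10 NADPH oxidase genes, which supply superoxide outside the cell, and none of 22 monolignol and lignin genes were among the listed genes, nor were any of 11 genes of the Casparian strip and endodermis, which are counted among the root markers.

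The listed genes whose pattern over the 12 libraries was most like the mean of the 6 leaf-table members (on z-scores of log2(FPKM + 1)) were CHI-B, a basic chitinase gene, with a Pearson r of 0.994, and then AT1G34420 (a leucine-rich repeat kinase family gene), AT4G16260 (a glycosyl hydrolase), AT5G03360 (a cysteine/histidine-rich C1 domain protein) and AT1G60730 (an NAD(P)-linked oxidoreductase), with r from 0.985 to 0.987. The points are 6 leaf and 6 root libraries, so the organ difference carries much of each r. CHI-B had means of 5.03 FPKM in ground control leaf, 25.0 in spaceflight leaf, 66.0 in ground control root and 70.8 in spaceflight root. It rose in leaf by 2.02 (SE 0.34, limma adjusted p = 0.000501) and had a difference of 0.11 in root.

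All 9 genes have a place in the RefSeq annotation of TAIR10.1, the reference of another ecotype than WS, and none overlaps another annotated gene. PER37 (AT4G08770) is at chr4:5598037-5600398 on the minus strand, PER45 (AT4G30170) at chr4:14762819-14764636 and PER50 (AT4G37520) at chr4:17631500-17633249 on the plus strand. PER21 (AT2G37130) is at chr2:15597921-15600154 on the minus strand and PER34 (AT3G49120) at chr3:18207651-18210333 on the plus strand. PER62 (AT5G39580) at chr5:15847065-15849141, PER59 (AT5G19890) at chr5:6724076-6725966 and PER70 (AT5G64110) at chr5:25654074-25656067 are on the minus strand, and PER10 (AT1G49570) at chr1:18346958-18349049 is on the plus strand. Each has 4 exons except PER21 with 5 and PER62 with 3, and the coding lengths run from 960 to 1062 bases.

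For 3 leaf-table genes, reads could be divided with a near copy. PER37 lies 3706 bases from AT4G08780, which is 93.4% identical over 1147 aligned transcript bases, PER34 lies 4385 bases from AT3G49110 (peroxidase CA, 89.2%) and PER50 lies 1446 bases from AT4G37530 (88.4%). RSEM assigns reads from such stretches by estimate, so the levels of these 3 genes are less certain than those of the other members, of which none shared a run of 50 bases with its closest relative. The near copies were not among the listed genes, and a sum over each couple was not made. Of the 50-base windows of PER37, 7.78% occurred unchanged in its copy, and 6.72% for PER34 and 6.22% for PER50. The longest runs shared between the coding sequences are shown in full because a stretch of read inside them matches both copies, and a pair of reads is placed only by what lies outside. They cover bases 910 to 1010 of the PER37, 810 to 920 of the PER34 and 152 to 218 of the PER50 coding sequence, with no part in capitals.
PER37 and AT4G08780: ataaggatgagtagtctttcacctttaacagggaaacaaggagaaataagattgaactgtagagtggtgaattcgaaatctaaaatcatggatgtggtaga
PER34 and AT3G49110: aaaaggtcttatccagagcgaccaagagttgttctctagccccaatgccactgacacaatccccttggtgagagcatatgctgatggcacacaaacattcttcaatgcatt
PER50 and AT4G37530: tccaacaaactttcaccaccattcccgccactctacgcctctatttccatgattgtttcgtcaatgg

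The 250 bases before each gene start were searched on both strands for TTGAC (the W-box core bound by WRKY factors), TGACG (the as-1 core bound by TGA factors), GCCGCC (the GCC-box) and CACGTG (the G-box). TTGAC occurred before 3 of the 9 genes, PER45, PER34 and PER62, and before 44.9% of 27443 genes. TGACG occurred before PER62, PER10 and PER59, and before 18.6% of all genes. GCCGCC occurred before PER59, and before 1.87% of all genes, and CACGTG before none of the 9 and 6.49% of all genes. PER62 held TTGAC 3 times, at 147, 68 and 17 bases before the start, and its TGACG overlaps the first of these. How many of all genes hold TTGAC 3 times was not counted. PER34 held TTGAC at 172 and 5 bases before the start, and PER45, whose window is not shown, at 121 bases. PER10 and PER59 held TGACG at 232 and 78 bases before the start and no TTGAC. The windows of PER62, PER34, PER10 and PER59 are shown with these matches. They are read 5′ to 3′ on the strand of the gene from TAIR10.1, with TTGAC and TGACG or their reverse complements in capitals.
PER62, chr5:15849142-15849391, minus strand: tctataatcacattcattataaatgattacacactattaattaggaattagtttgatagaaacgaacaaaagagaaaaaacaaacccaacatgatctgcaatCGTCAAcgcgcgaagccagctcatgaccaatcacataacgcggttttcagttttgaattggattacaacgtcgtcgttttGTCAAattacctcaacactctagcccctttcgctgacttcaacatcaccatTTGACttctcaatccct
PER34, chr3:18207401-18207650, plus strand: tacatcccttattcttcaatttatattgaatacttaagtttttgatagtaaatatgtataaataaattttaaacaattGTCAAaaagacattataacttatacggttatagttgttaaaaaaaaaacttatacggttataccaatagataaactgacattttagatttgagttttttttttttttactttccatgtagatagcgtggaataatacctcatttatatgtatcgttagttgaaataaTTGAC
PER10, chr1:18346708-18346957, plus strand: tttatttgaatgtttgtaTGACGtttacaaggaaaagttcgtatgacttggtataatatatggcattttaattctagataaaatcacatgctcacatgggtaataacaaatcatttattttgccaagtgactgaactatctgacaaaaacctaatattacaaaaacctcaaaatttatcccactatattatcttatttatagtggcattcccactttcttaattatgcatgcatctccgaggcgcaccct
PER59, chr5:6725967-6726216, minus strand: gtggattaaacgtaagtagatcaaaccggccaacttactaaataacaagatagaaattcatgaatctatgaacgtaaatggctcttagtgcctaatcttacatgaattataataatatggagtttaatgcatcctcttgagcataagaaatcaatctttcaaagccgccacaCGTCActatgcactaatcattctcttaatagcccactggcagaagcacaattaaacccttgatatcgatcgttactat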

How the data were processed

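The authors used FastQC and Trimmomatic for read quality, STAR for mapping to TAIR10, RSEM for quantification and edgeR for testing (versions not given in the sources used here). Deposited tables give FPKM in 12 libraries. This unit was inferred, since the column names do not give it. Dividing the deposited mean CPM of the authors by the group means gave a ratio that rose with transcript length, with a Spearman's rho of 0.793 in the leaf table (606 genes) and 0.755 in the root table (63 genes). The fold change and p-value columns hold the authors' comparisons and were not used. Genes had passed CPM above 5 in at least 3 of all RNA libraries, those of both organs together, an FDR under 0.05 and a 2-fold change. No counts were used, so the depth per library is unknown.

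From these FPKM, log2(FPKM + 1) was fitted with limma 3.58.1 in R 4.3.3, two-sided, with Benjamini-Hochberg adjustment over all genes of the table, or of either table for the organ comparisons and the interaction. Alternatives were a pseudocount of 0.1, a mean FPKM of at least 1, an intensity trend, all 12 libraries in one fit, a replicate block, and each library left out. The steps were tested on simulated data. Members and gene lists were chosen with earlier results of these data known. The genes named are all members, up to 3 listed genes of each list by mean FPKM, and the 5 most like the leaf-table members. Sequences and positions are from RefSeq TAIR10.1, and transcripts were aligned with blastn 2.17.0. Whether the library kit kept strand is not settled between labels and paper. Python 3.11.15, pandas 2.3.3, scipy 1.17.1 and matplotlib 3.10.9 were used.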

Additional observations from a re-analysis of the deposited data

Results flagged for a closer look

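For 8 of the 9 genes the spaceflight effect differed between organs by the limma interaction, which is on the log2(FPKM + 1) scale and taken as leaf minus root. Of all 656 genes 73.5% were called in this comparison. It was 1.32 for PER37, 1.45 for PER21, 1.03 for PER45, 0.80 for PER50, 0.99 for PER34 and 1.98 for PER62, so that in these leaf-table genes spaceflight leaves stood further above their control than spaceflight roots. For the root-table genes PER10 and PER59 the values were -1.61 and -1.23, the reverse direction. The calls of PER34 and PER50 were lost under 12 and 9 of 16 alternative settings. The tables list genes by their effect in a given organ, so the direction in each group of genes follows in part from that choice. No group has more than 3 libraries, so no library was tested for standing apart.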

How the results depend on the processing

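No called result changed direction. The difference in spaceflight effect between organs of PER34 and PER50 lost its call in most settings (12 and 9 of 16). Leaving out each library in turn gave 3 to 6 members called higher in leaf (3 when either replicate 1 of ground control leaf or replicate 3 of spaceflight leaf was left out), 1 to 3 in root, 3 to 6 with a higher effect in leaf than in root and 2 to 3 with a lower one. With a pseudocount of 0.1, 1 member had a lower effect in leaf than in root, and 57 genes of the root table were called in root in place of 36. Over all genes, leaving out a library gave 18 to 41 calls in root (18 without spaceflight root replicate 2), 0 to 21 for leaf-table genes in root (21 without spaceflight root replicate 3) and 4 to 10 for root-table genes in leaf (4 without spaceflight leaf replicate 3, 6 without spaceflight leaf replicate 2 and 7 without ground control leaf replicate 3). For leaf-table genes in root, where 1 gene was called, the count was 12 with a mean FPKM of at least 1, and 6 with all 12 libraries in one fit, and no member was among them. The cause was not tested. With 3 libraries a group, differences near the 2-fold threshold are the least settled, and without counts the error of low values is unknown.

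With the replicate number as a block, 4 leaf-table genes were called in root, none of them a member, and 4 members had a higher effect in leaf than in root, since PER34 (0.99, limma adjusted p = 0.0578) and PER50 (0.80, limma adjusted p = 0.0613) were lost. It changed no other call of a member. Deviations from the group means of leaf and root libraries with the same number correlated at 0.0778, 0.450 and 0.310 in the ground control and at 0.0385, 0.0863 and -0.0179 in spaceflight, and 3 of these 6 libraries correlated best with their own number. Between ground control and spaceflight, which share no plate, leaf replicates 1 and 2 and root replicate 3 also correlated best with their own number. The matches by number thus cannot show whether plates were shared. The planned sum of a near-identical pair of members was not run, since no such pair was among the members.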
